A study of Homo sapiens with 12 samples.

Results

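The mixed-lineage kinases (MLKs) and the kinases they pass their signal to were followed at the mRNA level in HCC1806, a human triple-negative breast cancer cell line (a tumor type without estrogen receptor, progesterone receptor or HER2 amplification). The 10 genes were chosen by name, with earlier results of these data known: MAP3K21 (MLK4), MAP3K9 (MLK1), MAP3K10 (MLK2), MAP3K11 (MLK3), MAP3K12 (DLK), MAP3K13 (LZK), MAP3K20 (ZAK), MAP2K4 (MKK4), MAP2K7 (MKK7) and MAPK8 (JNK1). All 10 were among the 17013 genes of the table. Poly(A)-selected mRNA was sequenced from 4 groups, 3 libraries in each. Cells had been transfected with a non-targeting siRNA (siNT) or with a pool of 4 siRNAs against MLK4 (siMLK4), and were then given vehicle or 1 μM doxorubicin, a topoisomerase II poison, for 24 h. The vehicle is DMSO in the sample labels, which also mark these samples as time 0, and the Methods call them untreated. The paper's Results speak of vehicle only, and a supplementary legend names DMSO or doxorubicin for 24 h. The Methods start the drug 24 h after transfection. Whether the vehicle samples were harvested together with the treated cells is not settled by these sources. If they were harvested when the drug was added, its effect cannot be told apart from 24 h more of culture and knock-down. All groups are the same unmodified line, so that the results rest on 1 line, 1 pool of siRNAs and 1 control siRNA. The libraries held 16759025 to 19302248 reads assigned to genes. On the first principal component of the table (64% of the variance), which separated vehicle from doxorubicin, replicate 3 with doxorubicin lay closer to the vehicle libraries than the other two in both kinds of cells (28.04 against 42.5 and 41.1 in siNT, 35.9 against 49.3 and 57.0 in siMLK4 cells, vehicle -47.8 to -37.0). The Methods call the transfections triplicates, and neither they nor the labels say whether the 3 libraries of a group came from separate cultures, so the p-values measure the spread between these samples, which may be technical.

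MLKs are MAP3 kinases. In the JNK cascade a MAP3 kinase phosphorylates the MAP2 kinases MKK4 and MKK7, which in turn phosphorylate the JNK kinases, and JNK then phosphorylates transcription factors such as c-Jun and regulators of apoptosis. MLK1 to MLK4 share an SH3 domain, a kinase domain, leucine zippers and a CRIB motif that binds the small GTPases Cdc42 and Rac1, DLK and LZK are close relatives with leucine zippers, and ZAK is also known as a sensor of stalled ribosomes. MKK7 is specific for JNK, whereas MKK4 also phosphorylates the p38 kinases.

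MAP3K21 (ENSG00000143674) lies on the + strand at chr1:233327724-233385148 in GRCh38. Of the other genes the results turn on, MAP3K20 (ENSG00000091436) lies at chr2:173075435-173268015, MAP2K7 (ENSG00000076984) at chr19:7903843-7914478 and MAPK8 (ENSG00000107643) at chr10:48306639-48439360, all on the + strand. MAP3K9 (ENSG00000006432) lies on the - strand at chr14:70722526-70809534.

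The 4 siRNAs are shown because they define the knock-down, and because their sequence tells which relatives they resemble. Each matched the coding sequence of MAP3K21 on the + strand of chromosome 1 over 19 bases and no other annotated gene over its full length. Written as DNA, 5′ to 3′, with the 7 bases that pair with the seed of the guide strand in capitals, the targets are:
siMLK4 #1: ggaaagatgctCAGAGAGa
siMLK4 #2: aggagaagcccAAGGTAAa
siMLK4 #3: agaagaaacgaGAGGGAAt
siMLK4 #4: agaacagattgCAAAGAAa
In GRCh38 the target of siMLK4 #1 lies at chr1:233379030-233379048 in exon 9 of 10, that of siMLK4 #2 at chr1:233362204-233362222 in exon 5, that of siMLK4 #3 at chr1:233379276-233379294 in exon 9 and that of siMLK4 #4 at chr1:233376047-233376065 in exon 7. All 4 sites are present in 2 of the 3 annotated transcripts of the gene. The corresponding guide strands, with the seed (bases 2 to 8) in capitals, are:
siMLK4 #1 guide: uCUCUCUGagcaucuuucc
siMLK4 #2 guide: uUUACCUUgggcuucuccu
siMLK4 #3 guide: aUUCCCUCucguuucuucu
siMLK4 #4 guide: uUUCUUUGcaaucuguucu
Among the other 9 kinases the nearest stretches were those of MAP3K9 for siMLK4 #2 and of MAP3K13 for siMLK4 #4, each matching 16 of 19 bases. They are given below with the mismatched bases in capitals.
MAP3K9, nearest to siMLK4 #2: aggagaagcccCGggtGaa
MAP3K13, nearest to siMLK4 #4: agaacaTatGgGaaagaaa
The next nearest was MAP3K13 for siMLK4 #1, with 15 matching bases, and none of the nearest stretches, 1 for each siRNA and relative, was identical over the 7 seed bases. Matches to the 7 seed bases alone were common. In annotated 3′UTRs of 13568 genes, on the transcript strand, CAGAGAG was found in 17.6%, AAGGTAA in 11.4%, GAGGGAA in 17.3% and CAAAGAA in 20.4% of the genes, and 44.3% held at least 1 of the 4. The 3′UTRs of MAP3K21, MAP3K11 and MAP3K20 held none of them.

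MLK4 mRNA fell to 15.1% of its siNT level in vehicle-treated cells and to 14.5% in doxorubicin-treated cells. MAP3K21 had 553, 669.6 and 674 normalized reads (reads divided by the library's size factor) in siNT cells with vehicle, and 103, 94.7 and 88.7 in siMLK4 cells with vehicle. With doxorubicin the values were 758, 856 and 772 in siNT cells and 113, 138 and 94.4 in siMLK4 cells. All 6 siMLK4 libraries thus lay far below all 6 siNT libraries. On the variance-stabilized log2 scale of the table, which shrinks differences at low read numbers, the change of MAP3K21 was -2.24 ± 0.12 (SE, n = 3 per group) with vehicle (adjusted p = 9.74e-08, limma, Benjamini-Hochberg over all genes) and -2.37 ± 0.12 with doxorubicin (adjusted p = 1.12e-07). Doxorubicin itself left MAP3K21 at 126% of its vehicle level in siNT cells (log2 0.31, adjusted p = 0.0418) and at 121% in siMLK4 cells (log2 0.18, adjusted p = 0.219). The first of these kept an adjusted p under 0.05 in 5 of 12 fits that left out 1 library each (highest p 0.158). In bulk RNA, fewer cells that express a gene and less RNA per cell cannot be told apart.

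**Figure D1:**
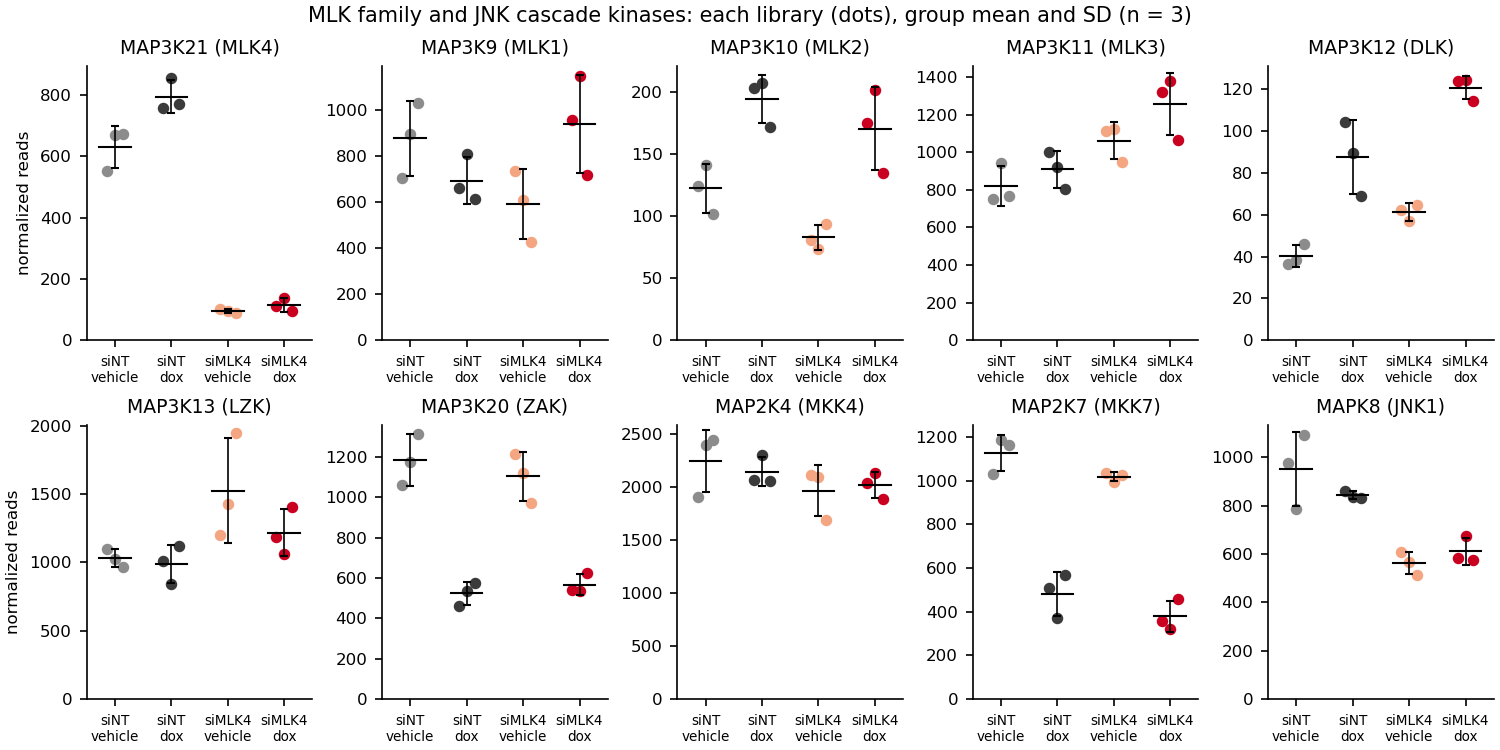
Normalized reads (linear axis from 0) of the 10 kinases in siNT and siMLK4 cells with vehicle or doxorubicin (dox). Dots are the 3 libraries of a group, horizontal lines the mean and bars the SD. MAP3K21 is low in all 6 siMLK4 libraries, MAP3K20 and MAP2K7 are low in all 6 doxorubicin libraries, and MAPK8 is lower in siMLK4 than in siNT cells.

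The knock-down changed the make-up of the MLK family. Normalized reads were divided by the length of each gene's main annotated transcript, and each gene was expressed as a share of the sum over MLK1 to MLK4. In siNT cells with vehicle MAP3K11 took 51.6% ± 2.91 (SD, n = 3), MAP3K21 24.1% ± 1.38, MAP3K9 17.0% ± 2.61 and MAP3K10 7.30% ± 1.12. In siMLK4 cells with vehicle MAP3K21 was left with 4.20% ± 0.20 and MAP3K11 took 77.0% ± 1.51. With doxorubicin MAP3K21 went from 27.0% ± 2.06 in siNT cells to 3.91% ± 0.25 in siMLK4 cells, and MAP3K11 from 50.8% ± 2.75 to 70.9% ± 1.91. The order of MAP3K11 and MAP3K21 in siNT cells depended on the length used. With the length of all annotated exons, an alternative chosen after seeing the data, MAP3K11 took 30.7% ± 2.58 and MAP3K21 31.4% ± 0.89 in siNT cells with vehicle, and 30.5% ± 2.38 and 35.5% ± 2.09 with doxorubicin. In siMLK4 cells the same lengths gave MAP3K11 56.8% ± 2.27 and MAP3K21 6.79% ± 0.35 with vehicle, and 48.9% ± 2.33 and 5.92% ± 0.28 with doxorubicin. With either length MAP3K21 had the lowest share of the 4 genes in siMLK4 cells and MAP3K11 the highest. The summed level of the 4 genes was 449 ± 47.4 normalized reads per kilobase in siNT and 390 ± 38.4 in siMLK4 cells with vehicle, and 505 ± 39.9 and 501 ± 77.4 with doxorubicin. Shares sum to 100%, so a loss of one member raises the others without any change in their own level.

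**Figure D2:**
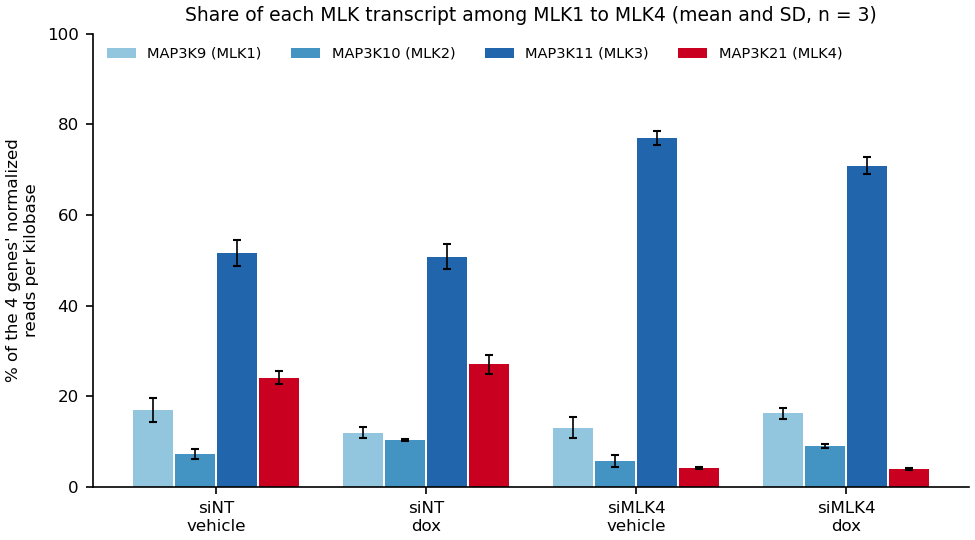
Share of MLK1 to MLK4 transcripts, as percent of their summed normalized reads per kilobase of the main annotated transcript (bars: mean of 3 libraries, error bars: SD; dox, doxorubicin). The MAP3K21 share is 24.1 and 27.0% in siNT cells and 4.20 and 3.91% in siMLK4 cells, while MAP3K11 is the highest bar in all 4 groups with this length (with the length of all exons its share in siNT cells is 30.7 and 30.5%).

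The other MLKs differed less between siMLK4 and siNT cells. MAP3K11, the gene of MLK3, had 753, 944 and 768 normalized reads in siNT cells with vehicle and 1112, 1124 and 950.3 in siMLK4 cells. With doxorubicin it had 1001, 919 and 807 in siNT and 1322, 1379 and 1067 in siMLK4 cells. In both conditions all 3 siMLK4 libraries were above all 3 siNT libraries, by 1.29-fold with vehicle (log2 0.35, adjusted p = 0.0579) and 1.38-fold with doxorubicin (log2 0.44, adjusted p = 0.0224). The second value was no longer under 0.05 when replicate 2 or 3 of siNT with doxorubicin was left out (adjusted p 0.0567 and 0.102), or replicate 1 or 2 of siMLK4 with doxorubicin (0.0950 and 0.0956).

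For MAP3K9, the gene of MLK1, the doxorubicin response had opposite signs in the 2 kinds of cells, and passed 0.05 in siMLK4 cells. It had 706, 896 and 1033 normalized reads in siNT cells with vehicle and 662, 808 and 613 with doxorubicin, a log2 change of -0.31 ± 0.20 (adjusted p = 0.192). The siMLK4 cells had 735, 612 and 429 with vehicle and 956, 1147 and 720.4 with doxorubicin, a log2 change of 0.63 ± 0.20 (adjusted p = 0.0135). Libraries of the groups compared overlapped in each case. The difference between the responses was 0.94 ± 0.28 on the log2 scale (95% interval 0.34 to 1.54), and did not pass adjustment over all genes (adjusted p = 0.114, limma). The rise in siMLK4 cells missed 0.05 without siMLK4 vehicle replicate 3 (adjusted p = 0.0626) or siMLK4 doxorubicin replicate 2 (adjusted p = 0.0715). MAP3K9 was the member with the widest spread between libraries, with a coefficient of variation of 26.0% in siMLK4 cells with vehicle.

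MAP3K10, the gene of MLK2, rose with doxorubicin in both kinds of cells. It had 124, 141 and 102 normalized reads in siNT cells with vehicle and 204, 208 and 172 with doxorubicin, which is 1.59-fold (log2 0.51 ± 0.14, adjusted p = 0.00527). After siMLK4 it had 81.2, 73.7 and 94.1 with vehicle and 176, 202 and 135 with doxorubicin, which is 2.06-fold (log2 0.74 ± 0.14, adjusted p = 0.00036). In neither case did the groups overlap. With vehicle, MAP3K10 was at 67.7% of its siNT level in siMLK4 cells (log2 -0.39, adjusted p = 0.0509).

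MAP3K12 (DLK) was the least abundant of the kinases in siNT cells and also rose with doxorubicin. It had 36.4, 38.4 and 46.0 normalized reads in siNT cells with vehicle and 104, 89.6 and 68.9 with doxorubicin, a 2.17-fold rise (log2 0.66 ± 0.12, adjusted p = 0.000281). After siMLK4 it had 62.1, 56.8 and 64.9 with vehicle and 124, 124 and 114 with doxorubicin, a 1.97-fold rise (log2 0.65 ± 0.12, adjusted p = 0.000304). All 6 doxorubicin libraries were above all 6 vehicle libraries, and the rise differed between the 2 kinds of cells by only -0.01 (95% interval -0.36 to 0.35). Both MAP3K12 and MAP3K10 stayed under the fold change threshold of the study on the compressed scale of the table, and both passed it under some alternatives. On log2(normalized reads + 1) the rise of MAP3K12 was 1.09 in siNT and 0.97 in siMLK4 cells (adjusted p = 0.000208 and 0.000545), and that of MAP3K10 was 1.02 in siMLK4 cells (adjusted p = 0.000327). With library totals MAP3K10 also passed in siNT cells (0.91, adjusted p = 0.000866). Of the exon bases of MAP3K12, 18.7% are overlapped by an exon on the other strand, and the authors counted reads by strand. With vehicle, MAP3K12 was 1.52-fold higher in siMLK4 than in siNT cells (log2 0.34, adjusted p = 0.0456), which held at 0.05 in 4 of 12 fits that left out 1 library (highest p 0.121), and with doxorubicin 1.38-fold (log2 0.33, adjusted p = 0.0517).

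MAP3K13 (LZK) is the closest relative of DLK. Its level was 1098, 1022 and 967 normalized reads in siNT cells with vehicle and 1202, 1426 and 1950.3 in siMLK4 cells, with 1 siMLK4 library well above the other two. That is 1.48-fold higher in siMLK4 cells (log2 0.52 ± 0.16, adjusted p = 0.0283). Without that library, siMLK4 vehicle replicate 3, the difference was 0.33 (adjusted p = 0.107), and it also missed 0.05 without siMLK4 vehicle replicate 2 (0.0542) or siNT vehicle replicate 2 or 3 (0.0716 and 0.0761). The doxorubicin response of MAP3K13 did not pass in siNT cells (log2 -0.06, adjusted p = 0.761) or siMLK4 cells (log2 -0.30, adjusted p = 0.129).

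MAP3K20 (ZAK) fell with doxorubicin whichever siRNA was used. It had 1059, 1174 and 1316 normalized reads in siNT cells with vehicle and 463, 533 and 576 with doxorubicin. In siMLK4 cells it had 1216, 1122 and 973 with vehicle and 538, 534 and 626 with doxorubicin. The lowest vehicle library was thus above the highest doxorubicin library in both kinds of cells. The fall was 1.10 ± 0.12 on the log2 scale in siNT cells, to 44.3% of vehicle (adjusted p = 4.86e-06), and 0.90 ± 0.12 in siMLK4 cells, to 51.3% (adjusted p = 2.69e-05). Without replicate 3 with doxorubicin the changes were -1.16 and -0.97. The siRNA pool left MAP3K20 at 93.3% with vehicle and 108% with doxorubicin (adjusted p = 0.609 and 0.576).

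The 2 MAP2 kinases of the cascade responded differently to doxorubicin. MAP2K7 (MKK7) had 1030, 1185 and 1163 normalized reads in siNT cells with vehicle and 510.3, 370 and 566 with doxorubicin. The siMLK4 cells had 1037, 993 and 1025 with vehicle and 359, 321 and 456 with doxorubicin. Every vehicle library was above every doxorubicin library. The fall was 1.16 ± 0.14 on the log2 scale in siNT cells, to 42.8% of vehicle (adjusted p = 1.43e-05), and 1.33 ± 0.14 in siMLK4 cells, to 37.2% (adjusted p = 4.45e-06), the largest doxorubicin response of any of the 10 kinases. Without replicate 3 with doxorubicin the values were -1.27 and -1.45. MAP2K4 (MKK4), by contrast, was at 2251 ± 294 normalized reads in siNT cells with vehicle and 2145 ± 138 with doxorubicin, and at 1966 ± 241 and 2022 ± 122 in siMLK4 cells. Its doxorubicin response was -0.06 in siNT cells, with a 95% interval of -0.32 to 0.20, and 0.04 in siMLK4 cells, with an interval of -0.22 to 0.30, so these data bound it to well under the fold change threshold of 0.75. For MAP2K4, 6.06% of the 50-base stretches of its transcripts also occur in other genes, the highest share among the 10.

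MAPK8 (JNK1) was lower in siMLK4 cells and did not respond measurably to doxorubicin. It had 976, 787 and 1091 normalized reads in siNT cells with vehicle and 607, 567 and 515 in siMLK4 cells. With doxorubicin it had 862, 835 and 832 in siNT cells and 583, 675 and 575 in siMLK4 cells. All 6 siMLK4 libraries were below all 6 siNT libraries. The difference was 0.70 ± 0.12 lower on the log2 scale with vehicle, at 59.2% of siNT (log2 -0.70, adjusted p = 0.000852), and was smaller with doxorubicin, at 72.5% (log2 -0.44 ± 0.12, adjusted p = 0.0169), a gap of 0.26 between the 2 differences that did not pass the test (95% interval -0.10 to 0.63, adjusted p = 0.538). The value with vehicle passed 0.05 in all 12 fits without 1 library, and without siNT vehicle replicate 2 it also passed the fold change threshold (log2 -0.82). With doxorubicin the adjusted p was over 0.05 without siNT doxorubicin replicate 1 (0.050033), siMLK4 doxorubicin replicate 1 (0.0736) or siMLK4 doxorubicin replicate 3 (0.0509). The annotated 3′UTR of MAPK8, 4331 bases long, holds 2 matches to the seed of siMLK4 #3 and 3 matches to that of siMLK4 #4, where the median 3′UTR has 1310 bases. Seed matches were also counted in the 3′UTRs of genes that were lower with the pool (MAP3K2 for 3 of the 4 siRNAs, DUSP4 for 2 and JUN for 1), of genes that were higher with it (BMF and MAP2K6 for 2 each and MAPK8IP2 for 1, while MAP4K1, MAPK8IP1 and STMN1 held none) and of MAP2K7, which did not pass (for 3). Among the other kinases, MAP3K13, higher in siMLK4 cells with vehicle, held 2 matches for siMLK4 #3 and 1 for siMLK4 #4 in 6638 bases. MAP3K12, also higher there at 0.05, held a match for 1 siRNA. MAP3K9 held matches for 3 of the siRNAs, MAP2K4 for 2 and MAP3K10 for 1, and none of these passed 0.05 between siRNAs. The part of seed matches in the lower MAPK8 level was not tested.

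**Figure D3:**
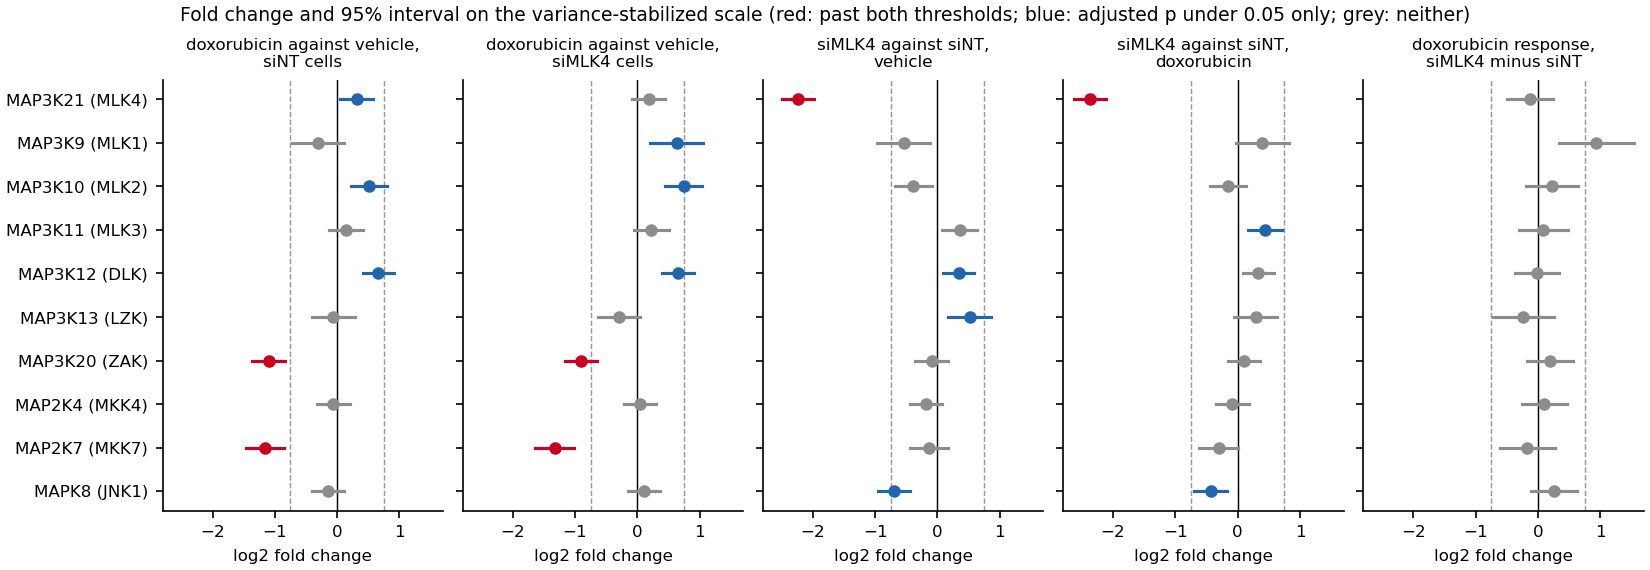
Log2 fold changes with 95% intervals (limma, 3 libraries per group) of the 10 kinases in the 5 comparisons. Dashed lines mark 0.75 in either direction. The long leftward bars are MAP3K21 in the comparisons of siRNAs (-2.24 and -2.37) and MAP3K20 and MAP2K7 in the comparisons with doxorubicin, and in the difference of responses (right) MAP3K9 lies farthest from 0 at 0.94 without passing adjustment.

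The rule of the study was an adjusted p under 0.01 and a log2 fold change over 0.75 in either direction. The study used DESeq2 results with corrected fold changes, and here the rule was applied to the limma values. By this rule 2 of the 10 kinases passed in siNT cells with doxorubicin, against 22.7% of all genes tested. Both, MAP3K20 and MAP2K7, were lower. In siMLK4 cells 2 of 10 passed, again MAP3K20 and MAP2K7, against 23.2% of all genes. Between siMLK4 and siNT cells 1 of 10 passed with vehicle, against 5.65% of all genes, and 1 of 10 with doxorubicin, against 5.58%, and this was the targeted MAP3K21 in both cases. None of the 10 passed for the difference between the doxorubicin responses, against 0.276% of all genes. That share is 47 genes, and the number was 0 to 37 in fits that left out 1 library (limma, 0 without siMLK4 doxorubicin replicate 1). At an adjusted p under 0.05 alone, 3 kinases were higher and 2 lower with doxorubicin in siNT cells, 5 of 10 against 57.3% of all genes (29.6% higher and 27.7% lower). In siMLK4 cells the numbers were also 3 and 2, against 57.9% of all genes (30.2% and 27.7%). With vehicle 2 were higher and 2 lower in siMLK4 cells (25.8% of all genes, 12.7% and 13% by direction), and with doxorubicin 1 was higher and 2 lower (24.8% of all genes, 12.7% and 12.1%). The libraries of the groups compared did not overlap for 5 of the 10 kinases with doxorubicin in siNT cells (62.4% of all genes), for 4 in siMLK4 cells (63.8%), for 6 between siRNAs with vehicle (37.8%) and for 4 between siRNAs with doxorubicin (43.9%). For the difference of responses 0 of 10 passed at 0.05 (all genes 1.2%), while MAP3K9 had the only unadjusted p under 0.05. The median log2 change of the 10 was -0.06 with doxorubicin in siNT cells and 0.15 in siMLK4 cells, and -0.16 and 0.01 for the siRNA pool with vehicle and doxorubicin. The medians of all genes lay between 0.0046 and 0.023 in these comparisons. The comparisons share groups, so that the values of one gene in different comparisons are not independent of each other.

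The order of the kinases by level was read per kilobase of transcript. In siNT cells with vehicle MAP2K4 led with 596 ± 77.9 (SD, n = 3) normalized reads per kilobase, followed by MAP2K7 with 334 ± 24.8 and MAP3K20 with 307 ± 33.3, whose libraries overlapped. MAP3K11 (232 ± 30.0), MAPK8 (164 ± 26.4) and MAP3K21 (108 ± 11.7) came next, and MAP3K21 overlapped with MAP3K13 (104 ± 6.69). MAP3K9 (76.3 ± 14.3), MAP3K10 (32.7 ± 5.22) and MAP3K12 (9.45 ± 1.19) closed the order. With doxorubicin MAP3K11 was in second place in siNT cells at 257 ± 27.5, and MAPK8, MAP2K7, MAP3K21 and MAP3K20 lay together between 136 and 145, each overlapping with the next. In siMLK4 cells MAP3K21 was in the 9th place with vehicle, at 16.3 ± 1.25 and overlapping with MAP3K12, and in the 10th with doxorubicin, at 19.7 ± 3.78. Taking the length of all annotated exons instead of the main transcript changed places within this order. In siNT cells with vehicle MAP3K11 went from place 4 to 7, while MAP2K4 stayed first and MAP3K12 last. In siNT cells with doxorubicin MAP3K11 went from place 2 to 5, MAP3K20 from 6 to 9 and MAP3K21 from 5 to 2. In siMLK4 cells with doxorubicin MAP3K20 went from place 3 to 7.

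Genes from the table with a mean of at least 100 normalized reads (11057 genes) were ranked by the likeness of their pattern to each kinase, as Pearson's r over the 12 libraries. For MAP3K21 the 5 highest were LAMP1 (0.996), ZNF268 (0.991), ACSL4 (0.989), ZNF562 (0.988) and HEPHL1 (0.988). LAMP1 encodes a lysosomal membrane protein and ACSL4 an acyl-CoA synthetase. For MAP3K20 the highest was TEX261 (0.994), for MAP2K7 it was CMBL (0.992), for MAP3K12 KCNAB2 (0.984), for MAPK8 WDR45B (0.975), for MAP3K10 TTC13 (0.970), for MAP2K4 ITPR3 (0.967), for MAP3K13 CFAP68 (0.960), for MAP3K11 RPA1 (0.960) and for MAP3K9 UGT8 (0.923). The 12 points are 4 groups of 3 libraries, so that any gene that separates the same groups gives a high value.

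The rest of the pathway was described with 9 lists of 66 genes, of which 64 were measured (MAP3K15 and MAP3K19 have no row in the table). By the rule of the study 5 of the 64 were higher and 9 lower with doxorubicin in siNT cells, where 12.1% and 10.6% of all genes were. In siMLK4 cells 7 were higher and 8 lower (all genes 12.6% and 10.6%). Between siMLK4 and siNT cells 3 were higher and 3 lower with vehicle (2.51% and 3.14%), and 4 higher and 2 lower with doxorubicin (2.66% and 2.93%). The median log2 change of the 64 genes was -0.22, -0.09, 0.0019 and 0.08 in these comparisons, in the same order.

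Upstream of the MLKs, 3 of 10 measured activators passed the rule with doxorubicin in siNT cells and 3 in siMLK4 cells, all lower (10.6% of all genes were lower in each). At an adjusted p under 0.05 alone 6 were lower in siNT and 8 in siMLK4 cells (27.7% of all genes in each), and none was higher. CDC42, the GTPase that binds the CRIB motif of MLKs, fell in siMLK4 cells from 8025 ± 72.3 (SD, n = 3) to 3919 ± 405 normalized reads (log2 -1.03 ± 0.10 (SE), adjusted p = 1.56e-06). In siNT cells it went from 5414 ± 192 to 3322 ± 173, which is 61.4% of vehicle and under the fold change threshold (log2 -0.70). With vehicle CDC42 was higher in siMLK4 than in siNT cells (adjusted p = 0.000996, limma), under that threshold. With doxorubicin it did not differ at 0.05 between siRNAs (adjusted p = 0.105), and the difference between its doxorubicin responses did not pass (adjusted p = 0.285). MAP4K2, a MAP4 kinase, fell to 44.8% of vehicle in siNT and 42.8% in siMLK4 cells (log2 -0.98 and -1.06). TNIK, another kinase of that family, fell to 45.7% in siNT cells and 53.9% in siMLK4 cells (adjusted p = 0.000544 and 0.00342). In siMLK4 cells it lost the call without siMLK4 vehicle replicate 1 or 2 or siMLK4 doxorubicin replicate 1 or 3 (log2 -0.63, -0.72, -0.79 and -0.65, adjusted p 0.011 to 0.0184), and with scaling by library totals (-0.69). TRAF2, an adaptor of TNF receptors, fell to 53.1% in siNT cells (log2 -0.81, adjusted p = 0.000309), with no call left when replicate 1 of siNT with vehicle (-0.67) or replicate 3 of siNT with doxorubicin (-0.70) was omitted or when libraries were scaled by totals (-0.66), and stood at 96.3% in siMLK4 cells (adjusted p = 0.793). That difference between the responses was 0.76 ± 0.21 (adjusted p = 0.0877). MAP4K1, with 24.7, 14.5 and 13.5 normalized reads in siNT and 52.1, 43.8 and 99.5 in siMLK4 cells with vehicle, was higher in siMLK4 cells (log2 0.90, adjusted p = 0.00327). It lost the call without siNT vehicle replicate 2 or 3 or siMLK4 vehicle replicate 3 (log2 0.85, 0.84 and 0.68), and when only the groups compared were fitted (adjusted p = 0.0256). The values of 0.85 and 0.84 were past the fold change threshold, with an adjusted p over 0.01 (at most 0.0154, limma).

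Of the 12 measured MAP3 kinases outside the MLK and DLK groups, only MAP3K2 (MEKK2) passed the rule in any comparison. None passed with doxorubicin, against 22.7% of all genes in siNT and 23.2% in siMLK4 cells. Between siRNAs 1 passed in each condition, against 5.65% of all genes with vehicle and 5.58% with doxorubicin. MAP3K2 had 2270, 2065 and 2784 normalized reads in siNT cells with vehicle and 1568, 1293 and 1229 in siMLK4 cells. With doxorubicin the values were 2350, 2964 and 2745 in siNT and 1458, 1537 and 1360.0 in siMLK4 cells. All siMLK4 libraries were below all siNT libraries, at 57.5% with vehicle (log2 -0.77 ± 0.13, adjusted p = 0.000805) and 54.0% with doxorubicin (log2 -0.86 ± 0.13, adjusted p = 0.000394). The first lost the call without siNT vehicle replicate 3 (-0.65) or siMLK4 vehicle replicate 2 or 3 (-0.74 and -0.70), with scaling by library totals (-0.65) or upper quartiles (-0.71), or when only the groups compared were fitted (adjusted p = 0.0155). Its 3′UTR, 8911 bases long, holds seed matches of 3 of the 4 siRNAs, whose part was not tested.

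Members of the p38 branch differed in their response to doxorubicin. MAP2K6 (MKK6), an activator of p38, had 75.2, 82.0 and 132 normalized reads in siNT cells with vehicle and 8.31, 11.2 and 8.11 with doxorubicin. After siMLK4 it had 348, 289 and 365 with vehicle and 27.1, 17.5 and 48.99 with doxorubicin. It thus fell to 9.53% and 9.34% of vehicle (log2 -1.58 ± 0.18 and -2.38 ± 0.18 on the compressed scale, adjusted p = 5.66e-06 and 1.98e-07). MAP2K6 was 3.46-fold higher in siMLK4 cells with vehicle (log2 1.43, adjusted p = 6.4e-05) and 3.39-fold with doxorubicin (log2 0.62, adjusted p = 0.0203). The last log2 value was 1.55 on log2(normalized reads + 1), 1.64 with library totals and 1.56 with upper quartiles, past the rule in each (limma, adjusted p 0.0020 to 0.0032). In fits without 1 library its adjusted p was 0.0103 to 0.0808. Of the 9 other MAP kinases, the p38 kinases MAPK11, MAPK12 and MAPK13 passed the rule with doxorubicin in both kinds of cells, all lower (10.6% of all genes were lower in each). MAPK12 fell to 24.9% in siNT and 23.9% in siMLK4 cells, MAPK13 to 45.3% and 50.4% and MAPK11 to 35.2% and 37.6%. MAPK14 (p38 alpha) did not pass, at 95.9% and 89.6% of vehicle (adjusted p = 0.647 and 0.209). MAP2K3 (MKK3), another activator of p38, stood at 117% in siNT cells (adjusted p = 0.111) and rose to 139% in siMLK4 cells (log2 0.46, adjusted p = 0.00402), under the fold change threshold. MAPK7 (ERK5) was 1.82-fold higher with doxorubicin in siMLK4 cells (log2 0.75, adjusted p = 0.00144), a call that was lost without siMLK4 vehicle replicate 3 or siMLK4 doxorubicin replicate 1 or 2 (log2 0.62, 0.72 and 0.63). In siNT cells MAPK7 had 225 ± 31.6 normalized reads with vehicle and 290 ± 44.2 with doxorubicin (adjusted p = 0.131, limma). The difference between its responses did not pass (adjusted p = 0.413). MAPK9 and MAPK10, the genes of JNK2 and JNK3, did not pass the rule in any comparison.

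The JNK scaffolds bring the kinases of the cascade together. MAPK8IP1 (JIP1) fell to 47.0% with doxorubicin in siNT cells (log2 -0.86 ± 0.12, adjusted p = 3.81e-05) and was 1.96-fold higher in siMLK4 than in siNT cells with doxorubicin (log2 0.76, adjusted p = 0.000514), the latter without a call when replicate 1 or 2 of siNT (log2 0.75 and 0.69) or replicate 3 of siMLK4 (log2 0.65) with doxorubicin was left out. In siMLK4 cells MAPK8IP1 also fell with doxorubicin, from 349 ± 16.0 to 241 ± 40.8 normalized reads (adjusted p = 0.00483, limma), under the fold change threshold. With vehicle it was higher in siMLK4 than in siNT cells (adjusted p = 0.0439), which held at 0.05 in 5 of 12 fits without 1 library. The difference between its doxorubicin responses did not pass (adjusted p = 0.289). MAPK8IP2 (JIP2) had 36.9, 40.7 and 28.4 normalized reads in siNT cells with doxorubicin and 104, 127 and 94.4 in siMLK4 cells, a 3.07-fold difference with no overlap (log2 0.97 ± 0.13, adjusted p = 0.000103). With vehicle MAPK8IP2 was also higher in siMLK4 cells, at 58.8 ± 11.1 against 36.0 ± 4.78 (adjusted p = 0.0367, limma), which held at 0.05 in 7 of 12 fits without 1 library. The difference between its doxorubicin responses did not pass (adjusted p = 0.119). The other 5 of the 7 scaffolds did not pass the rule in any comparison. With doxorubicin 1 of the 7 was lower in siNT cells (10.6% of all genes). Between siRNAs with doxorubicin 2 were higher in siMLK4 cells (2.66% of all genes).

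Among 6 phosphatases and inhibitors that restrain JNK, 2 were higher with doxorubicin in both kinds of cells, where 12.1% of all genes were higher in siNT and 12.6% in siMLK4 cells. DUSP1, a phosphatase of JNK and p38, stood at 192 ± 58.7 normalized reads with vehicle and rose to 640.5 ± 33.3 in siNT cells (log2 1.54 ± 0.15, adjusted p = 1.66e-06) and from 130.0 ± 13.7 to 496 ± 57.9 in siMLK4 cells (log2 1.60 ± 0.15, adjusted p = 1.22e-06). DUSP16, a JNK phosphatase, was 1.98-fold and 1.84-fold higher (log2 0.93 and 0.82), the second without a call when siMLK4 doxorubicin replicate 2 was left out (log2 0.73). DUSP4 was lower in siMLK4 cells, at 1596, 1336 and 1252 normalized reads in siNT and 408, 603 and 403 in siMLK4 cells with vehicle. That is 33.8% of siNT (log2 -1.48 ± 0.16, adjusted p = 1.65e-05), and with doxorubicin it was 44.4% (log2 -1.10 ± 0.16, adjusted p = 0.000206).

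Of the 9 JNK substrates, 3 were higher and 1 lower with doxorubicin in siNT cells (12.1% and 10.6% of all genes), and 4 higher and 1 lower in siMLK4 cells (12.6% and 10.6%). JUN, BMF and BCL2L11 rose in both. JUN, the gene of c-Jun, had 972, 922 and 723 normalized reads in siNT cells with vehicle and 1620.5, 1526 and 1552 with doxorubicin. After siMLK4 it had 423, 457 and 369.7 with vehicle and 1392, 1271 and 1429 with doxorubicin. The groups stood apart by drug in both kinds of cells. JUN was at 47.8% of its siNT level in siMLK4 cells with vehicle (log2 -0.97 ± 0.12, adjusted p = 5.16e-05) and at 87.1% with doxorubicin (log2 -0.19, adjusted p = 0.254). Its rise with doxorubicin was 1.80-fold in siNT cells (log2 0.82) and 3.27-fold in siMLK4 cells (log2 1.60), and the difference of 0.78 ± 0.17 was the only one of the 64 genes with an adjusted p under 0.05 (0.0359). That p was over 0.05 in 11 of 12 fits that left out 1 library (0.014 to 0.123) and with scaling by library totals or upper quartiles (0.0567 and 0.0559). Without siNT vehicle replicate 3 the rise in siNT cells was under the fold change threshold (log2 0.70).

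BMF and BCL2L11 (BIM) are pro-apoptotic BH3-only genes. BMF had 110.4, 104 and 136 normalized reads in siNT cells with vehicle and 715, 689 and 708 in siMLK4 cells, a 6.03-fold difference (log2 2.19 ± 0.16, adjusted p = 7.63e-07). With doxorubicin it had 487, 448 and 333 in siNT and 1562, 1714 and 1101 in siMLK4 cells, a 3.45-fold difference (log2 1.66 ± 0.16, adjusted p = 1.02e-05). Doxorubicin raised BMF 3.62-fold in siNT and 2.07-fold in siMLK4 cells, and the difference between these responses did not pass (adjusted p = 0.29, limma). BCL2L11 rose 3.15-fold and 2.79-fold with doxorubicin (log2 1.47 and 1.35). PXN, the gene of the focal adhesion protein paxillin, fell to 56.3% and 56.5% (log2 -0.82 in both), no longer past the fold change threshold with scaling by library totals (-0.59 and -0.64) or, in siNT cells, by upper quartiles (-0.71). STMN1, the gene of the microtubule regulator stathmin, was 1.69-fold higher with doxorubicin in siMLK4 cells (log2 0.77) and 1.76-fold higher in siMLK4 than in siNT cells with doxorubicin (log2 0.82). The first of these lost the call without siMLK4 vehicle replicate 1 or 2 or siMLK4 doxorubicin replicate 2 (log2 0.66, 0.73 and 0.75), and the second when replicate 3 of siNT with doxorubicin (log2 0.71) or replicate 1 or 2 of siMLK4 with doxorubicin (0.80 and 0.80, adjusted p over 0.01 and at most 0.0168) was omitted. STMN1 also rose in siNT cells, from 4519 ± 1006 to 6867 ± 959 normalized reads (adjusted p = 0.00561, limma). With vehicle it was higher in siMLK4 than in siNT cells (adjusted p = 0.00889). Both were under the fold change threshold, and the difference between the doxorubicin responses did not pass (adjusted p = 0.828).

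**Figure D4:**
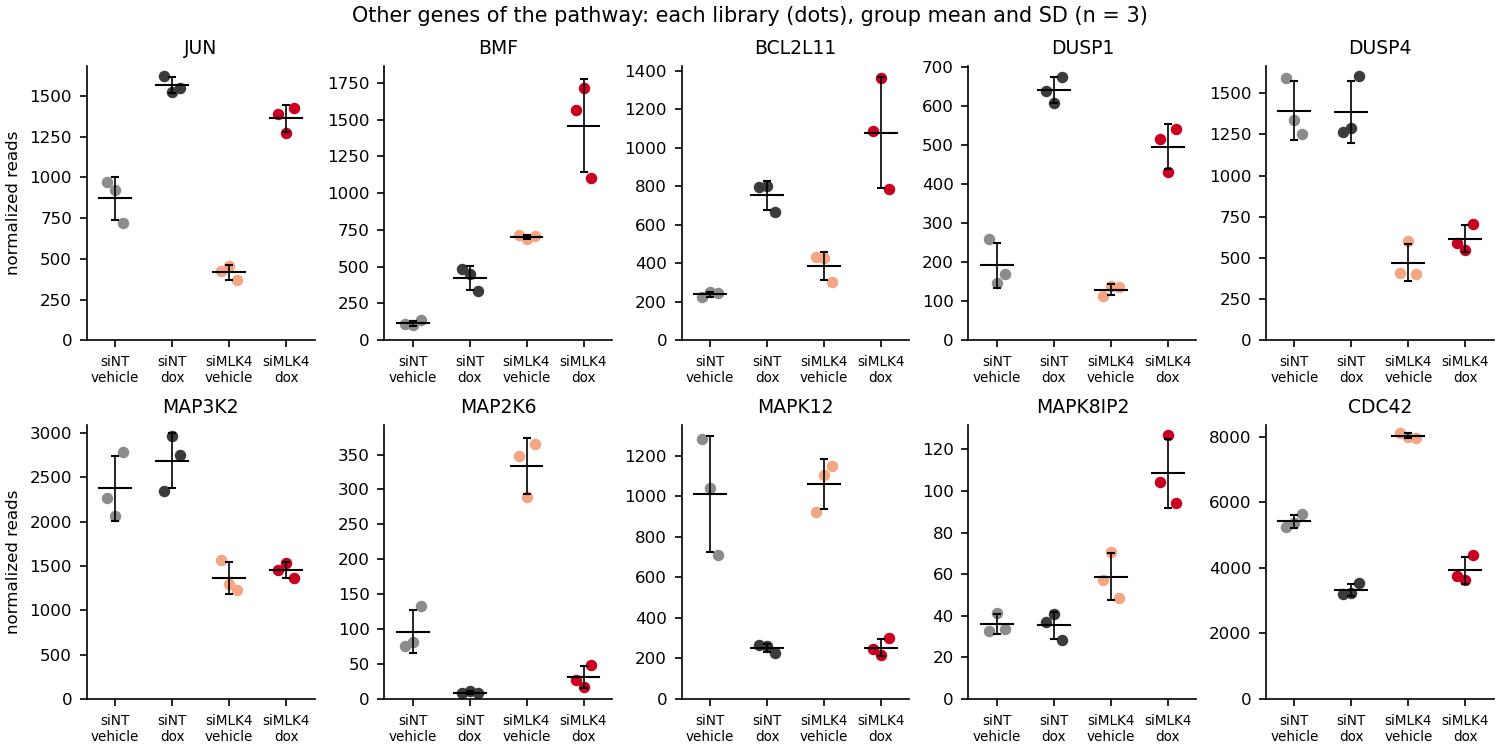
Normalized reads (linear axis from 0) of 10 further genes of the pathway in siNT and siMLK4 cells with vehicle or doxorubicin (dox), with each library as a dot, the mean as a line and the SD as a bar (n = 3). DUSP1 and JUN are high in the doxorubicin libraries, MAP2K6 and MAPK12 are low in them, and DUSP4 and MAP3K2 are low and BMF high in the siMLK4 libraries.

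Of 3 genes that control the turnover of DLK and LZK, none passed the rule. With doxorubicin 22.7% of all genes passed it in siNT and 23.2% in siMLK4 cells. Between siRNAs 5.65% passed with vehicle and 5.58% with doxorubicin. FBXO45, a part of the ubiquitin ligase that degrades DLK, had the lowest adjusted p, at 64.9% of siNT in siMLK4 cells with vehicle (log2 -0.61, adjusted p = 0.00119). None of the 3 genes of the IKK complex passed the rule either. IKBKB was lowest in adjusted p, at 68.2% of vehicle with doxorubicin in siMLK4 cells (log2 -0.49, adjusted p = 0.00125).

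Markers were read as a check of the label. Of 6 basal breast markers all were measured, with KRT5 the most abundant in every group, and their summed level was 41684, 46720.5 and 51237 normalized reads in siNT cells with vehicle, 21608, 22750.2 and 25771 with doxorubicin, 55626, 51140.4 and 50667 in siMLK4 cells with vehicle and 18444, 17638 and 19923 with doxorubicin. The sum was lower with doxorubicin in both kinds of cells. KRT5, KRT14, TP63 and EGFR passed the rule there, all lower (10.6% of all genes were lower in each). The other 2 basal markers did not pass with doxorubicin, KRT17 at 98.8% and 88.0% of vehicle in siNT and siMLK4 cells (adjusted p = 0.961 and 0.376) and CDH3 at 91.0% and 97.2% (adjusted p = 0.222 and 0.711). Between siRNAs, KRT5 was higher in siMLK4 cells with vehicle, at 155% of siNT (log2 0.64, adjusted p = 0.00736, under the fold change threshold), and at 79.8% with doxorubicin (adjusted p = 0.142). KRT14 was at 47.8% of siNT with vehicle and 40.5% with doxorubicin (log2 -1.05 and -1.26), and KRT17 at 56.3% with doxorubicin (log2 -0.82, adjusted p = 0.00185). The call of KRT17 was lost with library totals (-0.75), without replicate 3 of siNT (-0.80) or without replicate 1 or 2 of siMLK4 with doxorubicin (-0.78 and -0.74). The values of -0.80 and -0.78 were past the fold change threshold, with an adjusted p over 0.01 (at most 0.0129, limma). Of 3 receptor genes, ERBB2, the gene of HER2, was the most abundant at 1459 ± 171 normalized reads in siNT and 1893 ± 121 in siMLK4 cells with vehicle, and 1588 ± 80.6 and 1853 ± 48.7 with doxorubicin. ESR1, the estrogen receptor gene, was at 92.7 ± 17.99 normalized reads in siNT and 117 ± 38.2 in siMLK4 cells with vehicle, and at 46.5 ± 10.5 and 48.97 ± 6.96 with doxorubicin. It was at 50.2% of vehicle in siNT cells (log2 -0.61, under the fold change threshold) and fell to 41.8% in siMLK4 cells (log2 -0.78, adjusted p = 0.00138), a call lost without siMLK4 vehicle replicate 1 or 2 (-0.71 and -0.64) or siMLK4 doxorubicin replicate 1 (-0.72). PGR, the progesterone receptor gene, had no read in the 6 vehicle libraries and 8 to 20 reads in the doxorubicin libraries. Amplification of ERBB2 cannot be read from these values. Of 6 markers of stromal, endothelial and blood cells, 3 have no row in the table (PECAM1, CDH5 and COL3A1). The summed level of the other 3 was 335, 297 and 293 normalized reads in siNT cells with vehicle, 484, 454 and 377 with doxorubicin, and 530.0, 507 and 611 in siMLK4 cells with vehicle and 574, 595 and 607 with doxorubicin. COL1A1, a collagen gene of stromal cells, was the most abundant of them. It was 1.85-fold higher in siMLK4 than in siNT cells with vehicle (log2 0.78, adjusted p = 0.000412), a call lost without siNT vehicle replicate 3 (0.74) or siMLK4 vehicle replicate 3 (0.72), and with doxorubicin it stood at 93.3% of vehicle in siNT and 76.6% in siMLK4 cells (adjusted p = 0.587 and 0.0231). ACTA2, the gene of smooth muscle actin, rose from 16.5 ± 4.19 to 151 ± 42.4 normalized reads with doxorubicin in siNT cells (log2 1.78, adjusted p = 1.15e-05) and from 18.8 ± 10.8 to 169 ± 61.1 in siMLK4 cells (log2 1.85, adjusted p = 8.41e-06). PTPRC, the marker of blood cells, had 0 to 7 reads per library with vehicle and 14 to 25 with doxorubicin. These levels moved with the drug and the siRNA, and their part in the results was not tested.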

How the data were processed

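The 10 kinases and the lists of other genes were chosen with earlier results of these data known. The authors deposited 1 table of variance-stabilized log2 values (DESeq2, from reads divided by size factors) for 17013 genes in 12 libraries, identified by Ensembl number only. The supplementary methods name Trimmomatic, Hisat2 with GRCh38, removal of optical duplicates, strand-specific counting and DESeq2, whereas the submitters' processing notes name hg19 with Trimmomatic 0.39, HTSeq 0.6.0 and DESeq2 1.26.0. Coordinates and names given here are those of GENCODE release 44 on GRCh38, which held 16957 of the genes, and were matched by Ensembl number. The transformation was inverted, which returned whole reads (tolerance 0.05) for 100% of values in every library and size factors of 0.852 to 1.199. The lowest mean of any gene in its highest group was 10.67 normalized reads, so that the table had been filtered.

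Samples were grouped by their labels and none was left out. The deposited values were tested with limma 3.58.1 in R 4.3.3 (lmFit, eBayes with a variance trend, 12 libraries and 4 group means in 1 fit), with Benjamini-Hochberg adjustment over all genes. Calls needed both an adjusted p under 0.01 and a log2 fold change beyond 0.75 in either direction. The text names all 10 kinases, every listed gene called in any of 5 comparisons (in a list with none, the one with the lowest adjusted p), and the genes most correlated with each kinase (5 for MAP3K21). MAPK9, MAPK10, MAPK14, MAP2K3, MAP3K5, MAP3K8, ITCH, CDH3 and ERBB2 were named after their values were seen. On simulated data the fit called 76 of 100 with a log2 change of 1, 100 of 100 with a change of 2 and 0 of 16813 others. The simulated reads were independent between libraries, with the same dispersion (0.01) for every gene. Changes were put into 1 group only, in genes above a minimum level. Some real genes spread more, such as MAP3K9 (coefficient of variation 26.0% in siMLK4 cells with vehicle), so these rates need not hold for the real libraries. Alternatives were other scalings, scales, filters and variance models, limma-voom on the recovered reads, a replicate block and leaving out each library. Same-numbered libraries deviated together in all 3 pairs, as read from the values only, between vehicle and doxorubicin in siNT cells (correlations 0.46, 0.105 and 0.205) and between siRNAs with doxorubicin (0.19, 0.516 and 0.559), not in the other 2 comparisons (vehicle and doxorubicin in siMLK4 cells -0.0774, 0.176 and 0.337, siRNAs with vehicle -0.723, 0.325 and -0.523). No pair of libraries in a group agreed within sampling noise (chi-square per degree of freedom at least 7.185). The vehicle groups held the least alike pairs, replicates 1 and 3 in siMLK4 cells (67.25) and in siNT cells (60.79). With doxorubicin the highest value was 25.95. siRNA sequences were taken from the list of sequences in the paper's supplement and matched to GENCODE transcripts and to the genome.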

Additional observations from a re-analysis of the deposited data

Results flagged for a closer look

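On the variance-stabilized scale, every siNT library moved one way with doxorubicin, relative to the vehicle mean, and every siMLK4 library the opposite way, in 8 of the 86 measured genes of the cascade and the lists (9.3%), against 3.99% of all genes. Among the 10 kinases these were MAP3K9, with a difference between the responses (siMLK4 minus siNT) of 0.94 on the log2 scale (adjusted p = 0.114, limma), and MAPK8, with 0.26 (adjusted p = 0.538). Among other kinases they were MAPK9 (JNK2), with 0.47 (adjusted p = 0.129), MAP3K5 with 0.52 (adjusted p = 0.175), MAP3K8 with -0.53 (adjusted p = 0.213) and MAP4K1 with -0.69 (adjusted p = 0.233). For MAP4K1 and MAP3K5 this held on the variance-stabilized scale and not in normalized reads. The substrate ITCH (0.34, adjusted p = 0.308) and the receptor gene ERBB2 (-0.15, adjusted p = 0.713) were the other 2. None of these 8 differences passed the test.

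In 2 of the 86 genes the difference between the responses passed an adjusted p of 0.05, against 1.2% of all genes. For JUN, which rose in both kinds of cells, it was 0.78 (adjusted p = 0.0359, limma), but the p was over 0.05 in 11 of 12 fits without 1 library (up to 0.123) and with library totals or upper quartiles (0.0567 and 0.0559). For the basal keratin KRT5, which fell in both, it was -0.96 (adjusted p = 0.0471), with a p over 0.05 in 10 of 12 fits without 1 library (up to 0.134), on log2(normalized reads + 1) (0.0521) and with a minimum of 10 normalized reads in every library (0.0519). Groups of 3 libraries are too small for the outlier test used on larger groups, so that no single library was marked.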

How the results depend on the processing

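No call among the 10 cascade kinases was lost or changed direction under any alternative run, leaving out each library included. The number of kinases called in siNT cells with doxorubicin was 2, became 5 at an adjusted p under 0.05 alone and 4 with library totals or upper-quartile scaling, and was 2 to 3 without 1 library (3 without siNT doxorubicin replicate 3, with MAP3K12 added). In siMLK4 cells with doxorubicin it was 2, became 5 at an adjusted p under 0.05, 4 with log2(normalized reads + 1), with limma-voom or with upper quartiles and 5 with library totals, and was 2 to 4 without 1 library (4 without siMLK4 doxorubicin replicate 3, with MAP3K9 and MAP3K10 added). For siMLK4 against siNT it was 1 with vehicle, became 4 at 0.05, and was 1 to 2 without 1 library (2 without siNT vehicle replicate 2, with MAPK8 added), and 1 with doxorubicin, became 3 at 0.05, and stayed at 1 without any library. For the difference of responses it was 0 throughout.

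Of the 64 other pathway genes, the 14 called in siNT cells with doxorubicin became 35 at 0.05 and were 14 to 17 without 1 library, and the 15 in siMLK4 cells became 39 and were 13 to 17. With vehicle the 6 called for siMLK4 against siNT became 24 at 0.05, 10 with library totals and 11 with upper quartiles, and were 5 to 8 without 1 library. With doxorubicin the 6 became 18 at 0.05 and 10 with library totals, and were 5 to 7. For the difference of responses 0 became 1 at 0.05 and stayed at 0 without any library.

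With the replicate block the counts of kinases called were the same in each comparison (2, 2, 1, 1 and 0). At 0.05 the block moved 3 kinases across the threshold, all for siMLK4 against siNT with vehicle, where the numbers do not pair the samples (MAP3K11 to 0.0276, MAP3K10 to 0.047 and MAP3K12 to 0.0591).

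With library totals the median log2 change of all genes was 0.244 in siNT cells with doxorubicin, 0.21 in siMLK4 cells, and 0.156 and 0.116 for siMLK4 against siNT with vehicle and doxorubicin, and with upper quartiles 0.129 in the first and 0.105 in the third (0.00456, 0.0179, 0.0121 and 0.0225 with the deposited scaling). Among the 10 kinases, some directions that missed the test turned under these scalings. With doxorubicin in siNT cells they were those of MAP3K13, MAP2K4 and MAPK8. For the siRNAs they were those of MAP3K20 and MAP2K7 with vehicle and of MAP2K4 with doxorubicin. Other named genes turned too, among them KRT17 and COL1A1 in siNT cells and TRAF2 in siMLK4 cells, each with doxorubicin. The share of higher genes among all called was 53.4% in siNT cells with doxorubicin (73.4% with library totals, 65.6% with upper quartiles, 43% when every library had to hold 10 normalized reads or more, which left 13277 genes), 54.4% in siMLK4 cells (68.7% with totals, 44.7% with that minimum), 44.4% for siMLK4 against siNT with vehicle (73.8%, 67.2% and, with log2(normalized reads + 1), 55.5%) and 47.6% with doxorubicin (62.2% with totals). The 961 genes called for the siRNAs with vehicle became 1613 with log2(normalized reads + 1), 1483 with limma-voom, 1841 with library totals, 1693 with upper quartiles and 611 with only the groups compared. The 950 with doxorubicin became 1466 with limma-voom and 1451 with library totals. The 47 for the difference of responses became 29 with limma-voom and 31 with upper quartiles, and in the fits without 1 library were 12, 32 and 28 without siNT vehicle replicates 1, 2 and 3, 8, 6 and 13 without those of siNT with doxorubicin, 11, 16 and 34 without those of siMLK4 with vehicle, and 0, 16 and 37 without those of siMLK4 with doxorubicin. The causes were not tested. MAP3K12, the kinase with the fewest reads in siNT cells, passed the fold change threshold there with log2(normalized reads + 1), limma-voom, library totals and upper quartiles (1.09 to 1.32) and without siNT doxorubicin replicate 3 (0.77), and not in the other fits.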
